A study of Mus musculus with 12 samples.

Results

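The collagen chain genes are the genes whose mouse symbol is Col, a number, the letter a and a number, each of which encodes 1 alpha chain of a collagen. The rule found 44 of them among 35697 genes listed for the sham and TBI libraries, and the same 44 among 55637 genes listed for the TBI and zileuton libraries. All 44 had 10 or more counts in 3 or more of the 6 libraries of each comparison, and all 44 passed the filter on low counts, so none was left out. In the zileuton comparison Col10a1 did so through the TBI libraries alone. In the TBI comparison Col9a1 and Col10a1 reached 10 counts in 2 sham libraries and 3 TBI libraries.

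RNA from the brains of adult male C57BL/6J mice was sequenced as read pairs in 12 libraries, 4 groups of 3. In 2018 sham mice were set against mice 7 days after a traumatic brain injury (TBI), made by controlled cortical impact with a 3-mm tip driven at 1.5 m/s to a depth of 1.5 mm for 100 ms, while sham mice had the surgery without the impact. In 2022 mice with the same injury were set against injured mice given zileuton, an inhibitor of 5-lipoxygenase, at 10 mg/kg per day into the peritoneum in corn oil. The labels call the 2022 controls only TBI, whereas the study speaks of them as vehicle-treated, and the labels give 7, 8 and 9 days for the zileuton mice whose library names all give day 7. All mice were wild type, no batch held both comparisons, and the replicates of the 2022 columns are called A, B and C because their column numbers match no single label. Tissue was taken from around the contusion, so the samples are mixtures of parenchyma, vessels, meninges and invading cells.

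Collagens are extracellular proteins in which 3 alpha chains wind into a triple helix. Fibrillar collagens form the cables of scar and meninges, type IV collagens form the sheet of basement membranes around brain vessels, and other classes decorate fibrils, make networks or span the cell membrane. Healthy brain parenchyma holds little fibrillar collagen outside its vessels and meninges. After an injury that breaks the meninges, fibroblasts and vessel wall cells lay down a fibrous scar rich in types I, III and IV.

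The counts added up to between 42929862 and 48684674 per library in the 2018 table and to between 27845510 and 35453184 in the 2022 table. Levels below are CPM, counts scaled to library size, after TMM scaling, or FPKM and TPM where chains are compared with each other, and a gene is called when edgeR's quasi-likelihood test gave an adjusted p under 0.05. Gfap, the astrocyte filament gene, was at 141 to 221 CPM in the sham and at 2241 to 2616 CPM in the 2018 TBI libraries. In bulk tissue fewer cells of a type and less RNA per cell cannot be told apart. The 6 choroid plexus markers separated libraries within groups. Their summed level was 1082 CPM in sham 1 but 22.3 and 58.8 CPM in sham 2 and 3, against 1171 to 1350 CPM in the 2018 TBI libraries. In the 2022 table the sum was 11.7, 476 and 1056 CPM in TBI A, B and C and 1474, 1280 and 15.2 CPM in zileuton A, B and C.

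Sequence at the starts of the genes is shown because several chains of 1 trimer are encoded by adjacent genes that share a promoter region. Among members within 500000 bases of each other there were 10 neighbouring pairs, and 3 of these pairs lay head to head, all of them type IV. Col4a1 (chr8:11198423-11312826, minus strand) and Col4a2 (chr8:11312805-11449287, plus strand) overlap at their starts by 22 bases in GENCODE M21 on GRCm38, with the GGGCGG box in capitals, read on the plus strand.

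Col4a2 start to Col4a1 start, chr8:11312805-11312826: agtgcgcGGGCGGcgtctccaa

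Col4a4 and Col4a3 on chromosome 1 are separated by 71 bases, and Col4a6 and Col4a5 on chromosome X by 1308 bases. RefSeq promoters on GRCm38.p6, 250 bases before to 50 bases after a start, were at hand for 35 of the 44 genes in 38 windows. The box GGGCGG, searched on both strands, was in 60.5% of these windows and in 35.7% of 32851 promoters of all genes. The other motifs were no more frequent in the members. CCAAT was in 34.2% against 37.4%, TATAAA in 13.2% against 13.6% and TGANTCA in 2.63% against 7.81%. The stretches below are the 120 bases before the start of those members that were called at 2-fold or more in TBI, hold a searched motif there and overlap no annotated exon. Capitals mark GGGCGG or its complement CCGCCC, and TATAAA in Col3a1. Each is printed 5′ to 3′ on the strand of its gene.

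Col3a1, chr1:45311418-45311537, plus strand: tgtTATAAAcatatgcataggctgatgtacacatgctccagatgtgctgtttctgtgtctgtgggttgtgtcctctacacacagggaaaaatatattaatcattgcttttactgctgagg
Col5a3, chr9:20815068-20815187, minus strand: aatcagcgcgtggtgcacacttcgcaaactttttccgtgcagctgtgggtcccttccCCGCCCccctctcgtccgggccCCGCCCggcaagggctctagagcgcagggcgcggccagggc
Col11a2, chr17:34039018-34039137, plus strand: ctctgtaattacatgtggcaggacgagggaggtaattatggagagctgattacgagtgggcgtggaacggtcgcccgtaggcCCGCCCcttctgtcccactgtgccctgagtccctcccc
Col27a1, chr4:63215292-63215411, plus strand: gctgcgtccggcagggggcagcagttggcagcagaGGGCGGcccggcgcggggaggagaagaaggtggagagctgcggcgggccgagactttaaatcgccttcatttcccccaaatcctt
Col4a6, chrX:141474077-141474196, minus strand: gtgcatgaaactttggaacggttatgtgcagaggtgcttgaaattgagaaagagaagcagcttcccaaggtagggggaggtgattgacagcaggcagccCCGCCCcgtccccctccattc
Col8a1, chr16:57754738-57754857, minus strand: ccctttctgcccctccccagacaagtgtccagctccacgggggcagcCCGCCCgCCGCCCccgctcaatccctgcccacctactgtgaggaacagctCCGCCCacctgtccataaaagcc
Col7a1, chr9:108953466-108953585, plus strand: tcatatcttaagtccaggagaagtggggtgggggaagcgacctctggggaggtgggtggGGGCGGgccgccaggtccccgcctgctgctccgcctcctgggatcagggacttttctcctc

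The TATAAA of Col3a1 begins 117 bases before the start. The CCGCCC boxes of Col8a1 begin 73, 66 and 23 bases before it, and the single box of Col4a6 begins 21 bases before it. These matches are descriptions of letters and not of binding. Col1a1, Col2a1, Col4a3, Col5a2, Col9a3, Col12a1, Col14a1, Col22a1 and Col26a1 had no entry.

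The 2018 libraries asked what injury does to gene expression at 7 days. Most collagen chains were higher after TBI. Of the 44 genes 24 were called higher and 2 lower, while 28.0% of 19536 genes were called, 16.8% higher and 11.2% lower. A 2-fold change or more was seen in 20 of the called members, and in 1837 called genes among all 19536 tested. The median log2 fold change was 0.89 over the members and 0.02 over all genes tested. The values of the TBI libraries lay all above those of the sham libraries for 29 members and all below for 2, where 44.4% of all genes tested did not overlap in either direction. None of the 26 called members overlapped. Col9a1, 1 of the 24 called higher, passed the filter only with the TBI libraries, where it was high, so its call is no support. The classes are described in turn, and differences between them were not tested.

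**Figure D1:**
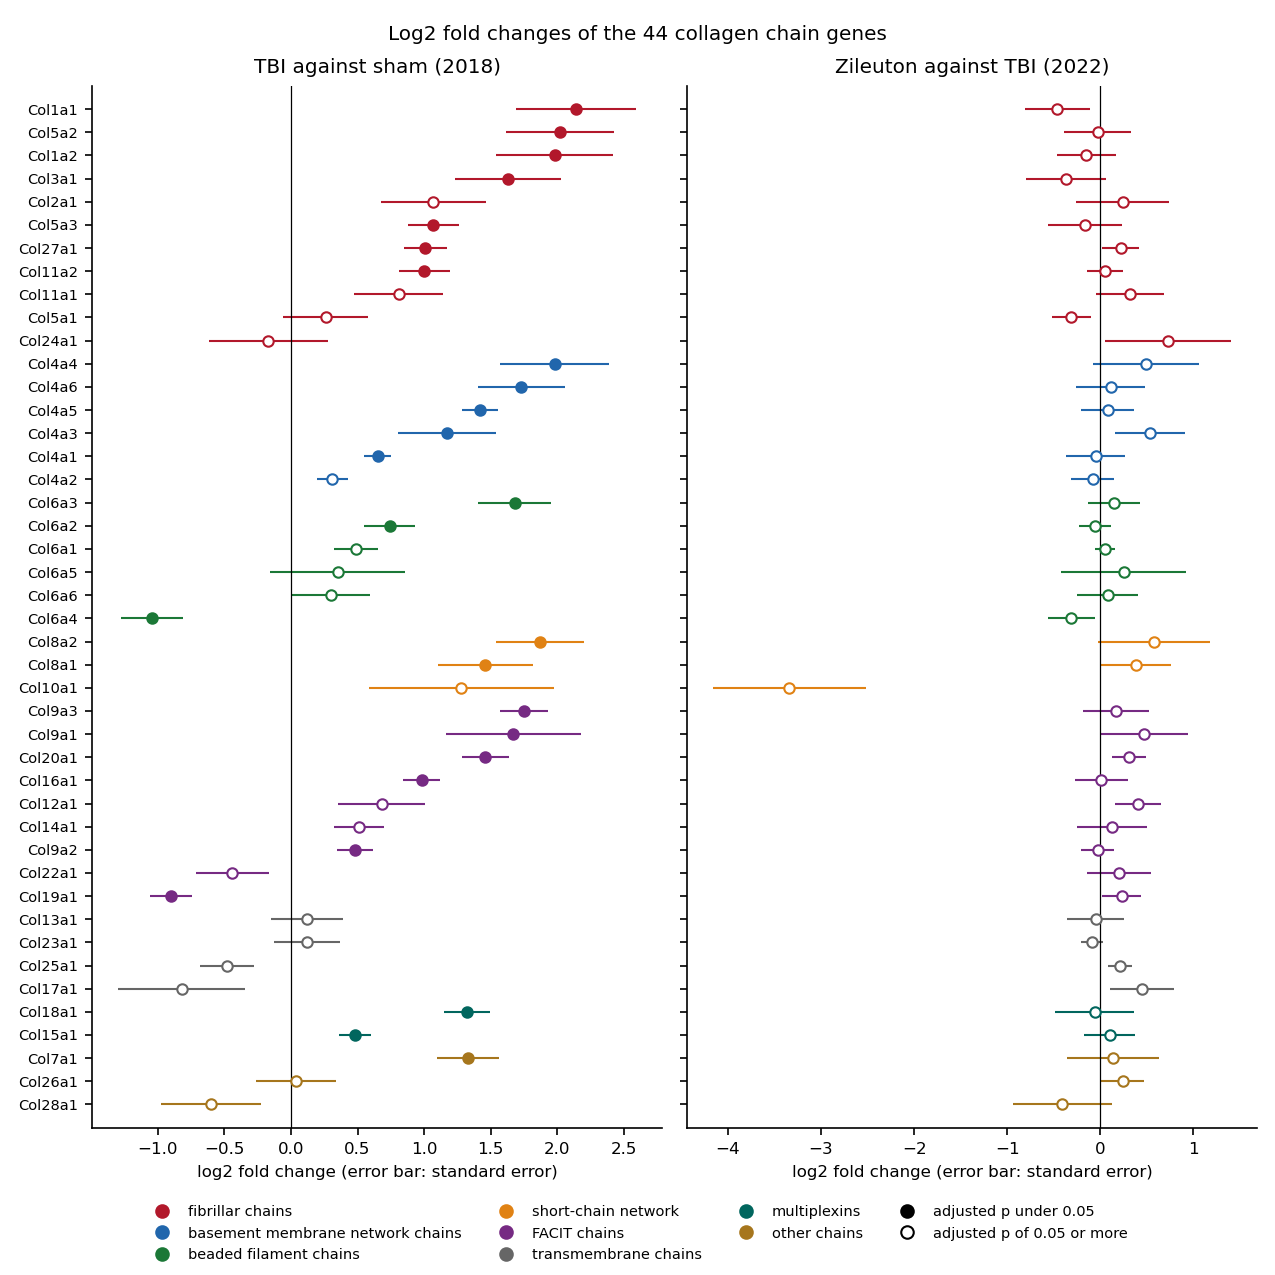
Log2 fold changes with standard errors of the 44 genes for TBI against sham in 2018 (left) and zileuton against TBI in 2022 (right), n = 3 libraries per group, ordered by class. Filled points have an adjusted p under 0.05; 26 are filled on the left and 0 on the right, where Col10a1 lies apart at −3.34.

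Fibrillar chains build the cables of connective tissue, and 7 of the 11 were called higher, with a class median log2 fold change of 1.07. Col1a1 and Col1a2 encode the chains of type I collagen, the main protein of scar and bone. Col1a1 (chr11:94936224-94953042) was at 24.8, 21.7 and 25.9 CPM in sham 1, 2 and 3 and at 117, 35.2 and 168 CPM in TBI 1, 2 and 3. The groups did not overlap, but TBI 2 lay much nearer to the sham libraries than TBI 1 and 3 did. The log2 fold change was 2.14 (SE 0.451, adjusted p = 0.00806). Col1a2 (chr6:4504814-4541544) was at 33, 33 and 32.1 CPM in sham and at 122, 46.5 and 218 CPM in TBI, with a log2 fold change of 1.98 (SE 0.439, adjusted p = 0.0103). TBI 2 was again the lowest of its group, and without TBI 3 the value was 1.36.

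Col3a1 forms type III collagen, the thin fibrils laid down early in repair. It was at 45.3, 42 and 49.2 CPM in sham and at 124, 59.4 and 238 CPM in TBI. The groups were apart by the smallest margin in TBI 2, and the log2 fold change was 1.63 (SE 0.399, adjusted p = 0.0162). Without TBI 3 it was 1.01. Its call was lost without any 1 sham library, with adjusted p from 0.051 to 0.063, and with a robust fit. The robust fit also ended the calls of Col1a1 (adjusted p = 0.0672) and Col1a2 (adjusted p = 0.0765). Col5a2, a chain that sits inside type I fibrils and sets their width, was at 6.77, 5.73 and 6.63 CPM in sham. In TBI it was at 23.7, 11.1 and 43.1 CPM, a log2 fold change of 2.02 (SE 0.406, adjusted p = 0.00643). Its gene lies tail to tail with Col3a1 on chromosome 1, with 24614 bases between them, and both showed the same order of the TBI libraries. Col1a1, Col1a2, Col3a1 and Col5a2 also lost their calls with the two-sample test on FPKM (adjusted p = 0.205, 0.239, 0.259 and 0.209). The same held with limma without a filter (adjusted p = 0.0886, 0.103, 0.119 and 0.0936).

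The other called fibrillar chains had another order of libraries. Col5a3 was at 3.11, 3.18 and 2.95 CPM in sham and at 5.02, 7.51 and 6.92 CPM in TBI (log2 fold change 1.07, SE 0.195, adjusted p = 0.00392). Col11a2, a chain of cartilage-type fibrils, was at 13.7, 14.7 and 19.6 CPM in sham and at 32.4, 39.4 and 24.3 CPM in TBI (log2 fold change 1.00, SE 0.192, adjusted p = 0.00515). Col27a1 was at 4.95, 6.14 and 6.25 CPM in sham and at 10.8, 13.8 and 10.4 CPM in TBI (log2 fold change 1.01, SE 0.165, adjusted p = 0.00231). In these 3 genes TBI 2 was the highest library, whereas in Col1a1, Col1a2, Col3a1 and Col5a2 it was the lowest.

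The 4 fibrillar chains not called were Col2a1, Col11a1, Col5a1 and Col24a1. Col2a1, the cartilage chain, was at 0.621 to 0.716 CPM in sham and at 0.743 to 2.05 CPM in TBI without overlap (log2 fold change 1.07, SE 0.392, adjusted p = 0.0735). Sham 2 stood above the other sham libraries in the remaining 3 genes. Col24a1 was at 3.11, 11.3 and 3.85 CPM in sham, Col11a1 at 7.39, 19.9 and 8.27 CPM, and Col5a1 at 15.7, 35.4 and 23.2 CPM. Their adjusted p-values were 0.811, 0.107 and 0.597.

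**Figure D2:**
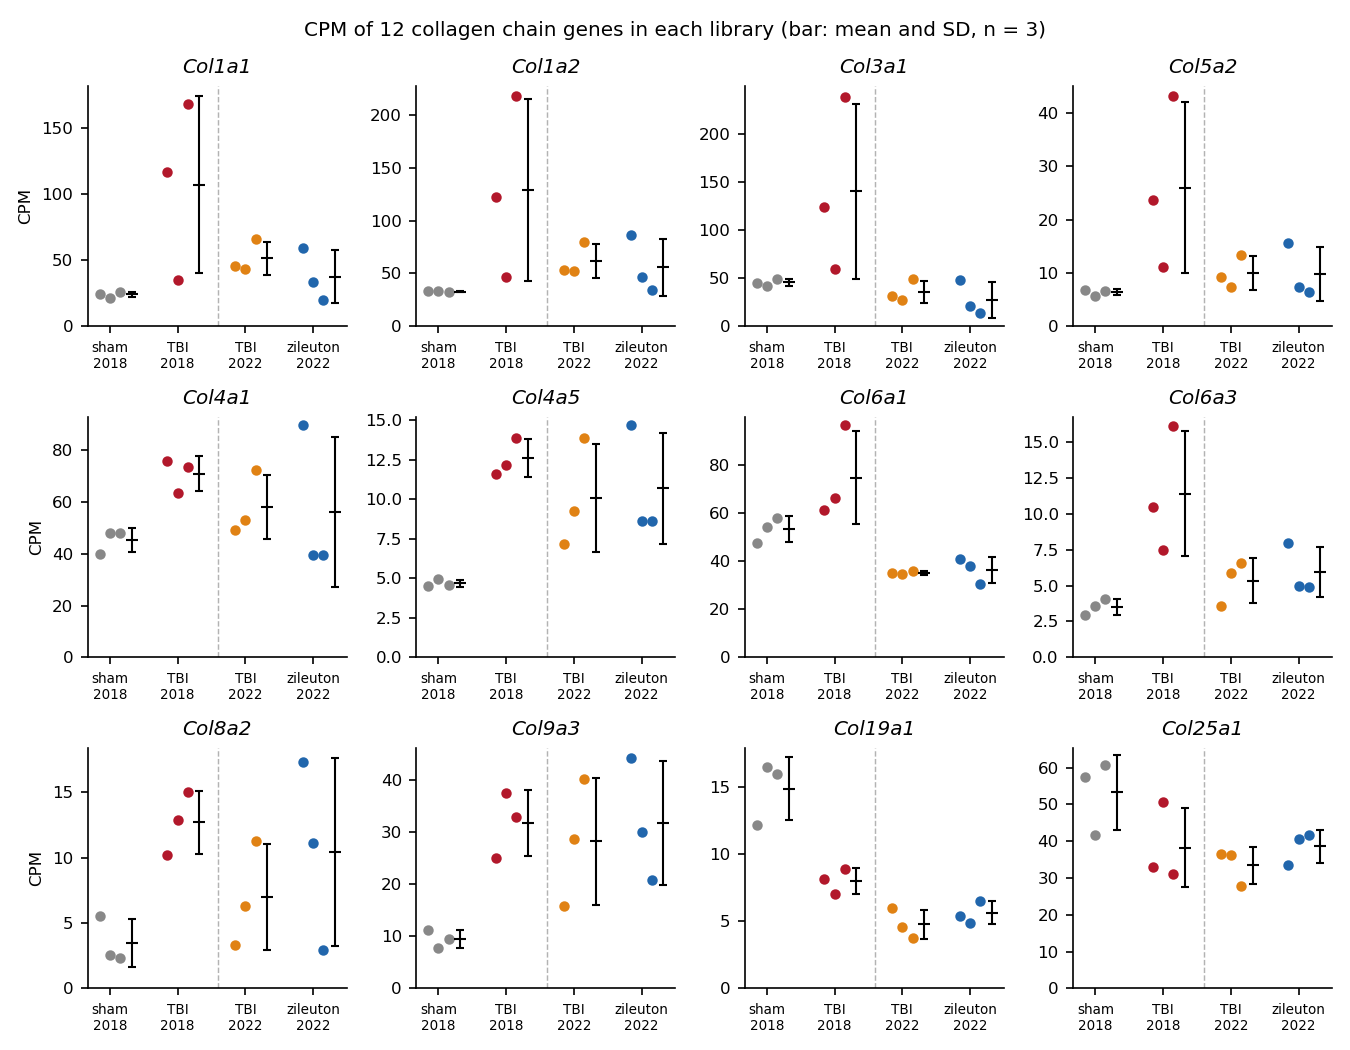
CPM of 12 collagen chain genes in each library by group, with the mean and SD (n = 3) beside the points; the dashed line divides the 2018 table from the 2022 table, whose levels are not compared. In Col1a1, Col1a2, Col3a1 and Col5a2 the TBI 2018 points spread widely and the lowest lies close to the sham points, whereas in Col4a5 and Col9a3 they form a group well above sham.

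Basement membrane chains make the type IV network that supports endothelium and the astrocyte endfeet. All 6 lay above sham without overlap, 5 were called higher, and the class median log2 fold change was 1.30. Col4a1, one of the pair found in every basement membrane, was at 40, 48.2 and 48 CPM in sham and at 76, 63.4 and 73.5 CPM in TBI (log2 fold change 0.65, SE 0.103, adjusted p = 0.00208). Its partner Col4a2 was at 40.3, 54.7 and 51.7 CPM in sham and at 64.3, 56.7 and 61.2 CPM in TBI (log2 fold change 0.31, SE 0.117, adjusted p = 0.0774), so it was not called.

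The chains of the specialised networks changed by more, from lower levels. Col4a5 was at 4.53, 4.95 and 4.57 CPM in sham and at 11.6, 12.2 and 13.9 CPM in TBI (log2 fold change 1.42, SE 0.136, adjusted p = 0.000122). Its replicates lay close together in both groups, and its call held under each of the 19 alternatives in which it entered. Col4a6, its head-to-head neighbour, was at 1.86, 1.15 and 1.33 CPM in sham and at 5.08, 6.42 and 2.88 CPM in TBI (log2 fold change 1.73, SE 0.329, adjusted p = 0.00495). Col4a4 was at 1.38, 0.54 and 0.547 CPM in sham and at 2.26, 3.69 and 3.78 CPM in TBI (log2 fold change 1.98, SE 0.409, adjusted p = 0.0074). Sham 1 was the highest sham library for both. Col4a3, paired with Col4a4, was at 0.755, 0.519 and 0.442 CPM in sham and at 1.1, 1.01 and 1.76 CPM in TBI (log2 fold change 1.17, SE 0.366, adjusted p = 0.0427), and its call was lost in 5 of the 6 fits that leave out 1 library.

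Beaded filament chains form type VI collagen, which links cells to the fibrils around them. Here 2 were called higher and 1 lower of 6. Col6a1, the highest chain of all in sham by FPKM, was at 47.3, 54.1 and 58 CPM in sham and at 61, 66.3 and 96.5 CPM in TBI (log2 fold change 0.49, SE 0.165, adjusted p = 0.0555). It did not overlap but was not called, and it was called higher under 6 of the 19 alternatives, with the lowest adjusted p, 0.0162, from DESeq2. Col6a2 was called (20.1 to 22.5 CPM in sham, 25.4 to 46.4 CPM in TBI, log2 fold change 0.74, SE 0.188, adjusted p = 0.0182). Col6a3, the longest of the usual chains, was at 2.97, 3.57 and 4.08 CPM in sham and at 10.5, 7.49 and 16.1 CPM in TBI (log2 fold change 1.68, SE 0.275, adjusted p = 0.00237).

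Col6a4, an alternative to Col6a3 in the trimer, went the other way. It was at 3.09, 2.46 and 3.41 CPM in sham and at 1.28, 1.64 and 1.42 CPM in TBI, with no overlap, and fell by 1.04 on the log2 scale (SE 0.233, adjusted p = 0.0106). Its exons overlap 2 genes of the opposite strand, and no source used here says whether counting kept the strand. Its neighbours on chromosome 9, Col6a5 and Col6a6, were not called (log2 fold changes 0.35 and 0.30, adjusted p = 0.655 and 0.5). Col6a5 spread from 0.789 to 3.41 CPM in TBI with TBI 2 on top.

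The short-chain collagens make open networks under endothelium, in the cornea and in growth cartilage. Col8a2 was at 5.57, 2.53 and 2.31 CPM in sham and at 10.2, 12.9 and 15 CPM in TBI (log2 fold change 1.87, SE 0.328, adjusted p = 0.00334). Col8a1, its partner, was at 7.52, 6.01 and 3.37 CPM in sham and at 11.9, 11 and 23.7 CPM in TBI (log2 fold change 1.46, SE 0.355, adjusted p = 0.0153). Sham 1 was again the highest sham library in both. Col10a1, a chain of hypertrophic cartilage, had 14, 6 and 12 counts in sham and 14, 12 and 51 counts in TBI and was not called (log2 fold change 1.28, SE 0.694, adjusted p = 0.207).

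The FACIT collagens are interrupted chains that coat fibrils, and 5 were called higher and 1 lower of 9. Col9a3, a chain of type IX collagen, was at 11.1, 7.74 and 9.47 CPM in sham and at 25, 37.5 and 32.9 CPM in TBI (log2 fold change 1.75, SE 0.179, adjusted p = 0.000183). Its exons overlap Tcfl5 on the opposite strand. Col20a1 was at 3.48, 4.11 and 4.31 CPM in sham and at 9.55, 13.1 and 10.1 CPM in TBI (log2 fold change 1.46, SE 0.174, adjusted p = 0.000437). Both were called under every alternative tried. Col9a1 was at 0.799, 0.432 and 0.147 CPM in sham and at 1.28, 1.72 and 1.37 CPM in TBI (log2 fold change 1.67, SE 0.509, adjusted p = 0.0389). These were only 7 to 84 counts per library, and 10 counts were reached in 2 sham and 3 TBI libraries. Col9a1 thus passed the filter only with the TBI libraries, where it was high, so its call is no support for a change. The value was 1.22 without sham 3 and 2.32 without sham 1, and the call was lost in 5 of the 6 fits that leave out 1 library, all but that without sham 1.

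Col19a1, a chain that neurons also express, lies tail to tail with Col9a1 at a distance of 9205 bases and moved in the opposite direction. It was at 12.2, 16.5 and 16 CPM in sham and at 8.13, 7 and 8.87 CPM in TBI, with no overlap, and fell by 0.90 on the log2 scale (SE 0.155, adjusted p = 0.00308). Col16a1 and Col9a2 were called higher (log2 fold changes 0.98 and 0.48, adjusted p = 0.00116 and 0.0309). Col12a1, a chain on the surface of type I fibrils, was at 19.7, 13.3 and 17.6 CPM in sham and at 21.8, 16 and 43.3 CPM in TBI (log2 fold change 0.68, SE 0.324, adjusted p = 0.156). The groups overlapped, and without TBI 2 it was called at an adjusted p of 0.0343. Col14a1 (adjusted p = 0.0755) and Col22a1 (adjusted p = 0.268) were not called either.

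None of the 4 transmembrane chains, which are anchored in the cell surface, was called. Col25a1, a collagen of neurons first found in amyloid plaques, was at 57.4, 41.7 and 60.8 CPM in sham and 33, 50.5 and 31.1 CPM in TBI. The groups overlapped through sham 2 and TBI 2 (log2 fold change −0.48, SE 0.2, adjusted p = 0.108). It was called lower under 2 of the 19 alternatives, without TBI 2 (−0.73, adjusted p = 0.0107) and with DESeq2 (adjusted p = 0.0254). For Col17a1 the log2 fold change was −0.82 (adjusted p = 0.241), and for Col13a1 and Col23a1 it was 0.12 in each (adjusted p = 0.775 and 0.752). Neuron markers moved in the direction of Col25a1 and Col19a1. Of the 6 neuron markers 4 were called lower, and their summed level was 6666 to 7287 CPM in sham and 4060 to 5252 CPM in TBI, and their part in these results was not tested.

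Both multiplexins, vessel basement membrane proteins whose tails are cut off as antiangiogenic fragments, were called higher. Col18a1, the precursor of endostatin, was at 6.37, 6.07 and 5.98 CPM in sham and at 15.9, 11.7 and 18.4 CPM in TBI (log2 fold change 1.32, SE 0.172, adjusted p = 0.000702). Col15a1 was at 7.97 to 9.05 CPM in sham and at 11.2 to 12.6 CPM in TBI (log2 fold change 0.48, SE 0.122, adjusted p = 0.018). Of the remaining chains, Col7a1, which makes anchoring fibrils, was at 1.29, 1.88 and 1.49 CPM in sham and at 4.19, 3.26 and 4.25 CPM in TBI (log2 fold change 1.33, SE 0.233, adjusted p = 0.00338). Col26a1 was at 3.2, 7.33 and 6.59 CPM in sham and 7.17, 4.8 and 5.62 CPM in TBI (log2 fold change 0.04, SE 0.3, adjusted p = 0.94), and Col28a1 was not called (log2 fold change −0.60, adjusted p = 0.276).

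The library with the highest value differed between chains. TBI 3 was the highest of the TBI libraries for 24 of the 44 members, against 37.7% of all genes tested. TBI 2 was the highest for 14, against 31.6%, which is near the share of all genes. It was the lowest for 24, against 36.3%. Markers of fibroblasts and meninges, when summed, had the same order of TBI libraries as Col1a1, Col1a2, Col3a1 and Col5a2. Single markers did not all share it, since Fmod, Slc6a13, Slc47a1 and Aldh1a2 were highest in TBI 1. Their summed level was 129, 125 and 101 CPM in sham and 198, 119 and 281 CPM in TBI 1, 2 and 3, so that TBI 2 was within the sham range. Oligodendrocyte markers had the reverse order, at 5286 to 5927 CPM in sham and 9142, 11084 and 6104 CPM in TBI 1, 2 and 3. The part of either in the collagen values was not tested.

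**Figure D3:**
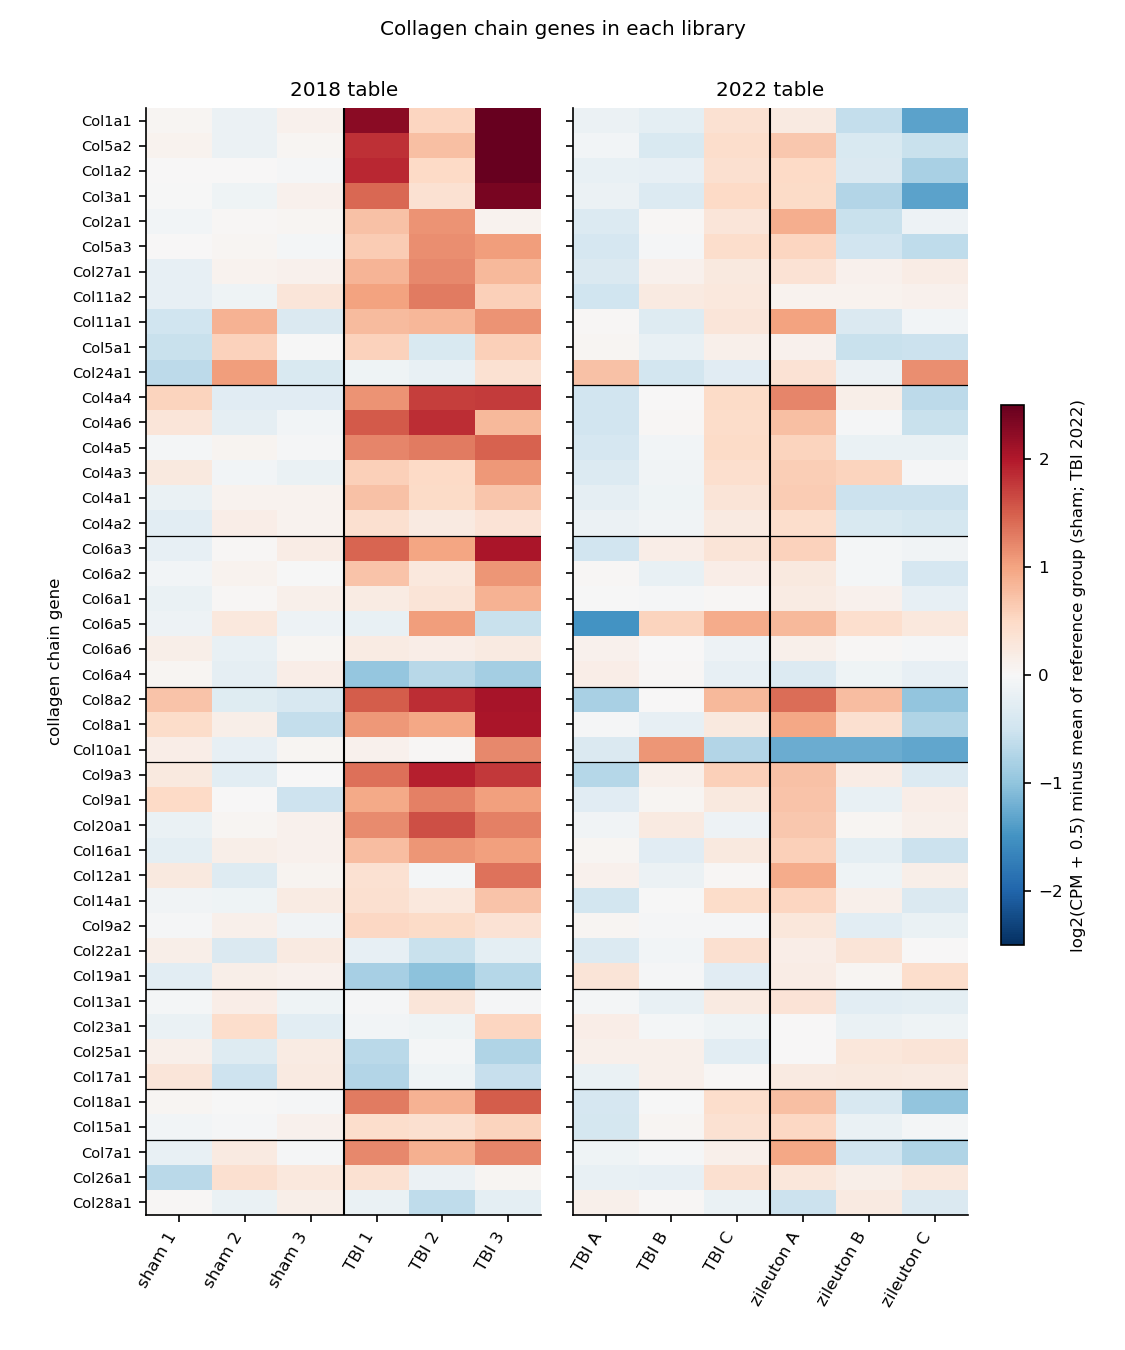
Each cell is log2(CPM + 0.5) of 1 gene in 1 library minus the mean of the reference group of that table (sham in 2018, TBI in 2022); red is higher, blue is lower, colours end at ±2.5 and lines divide the 8 classes. TBI 1 and TBI 3 are deep red in Col1a1, Col1a2, Col3a1 and Col5a2 where TBI 2 is pale, and zileuton A is red in most rows of the 2022 table.

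Summed over the 44 genes, collagen RNA was 495, 548 and 550 CPM in sham and 976, 743 and 1364 CPM in TBI, a ratio of the group means of 1.94. Every TBI library was above every sham library. Without Col1a1, Col1a2 and Col3a1 the sums were 392, 451 and 443 CPM in sham and 613, 601 and 740 CPM in TBI, a ratio of 1.52. On the length-scaled FPKM, fibrillar chains made up 26.2%, 28.3% and 26.7% of the collagen sum in sham and 42.7%, 27.1% and 47.8% in TBI 1, 2 and 3. TBI 2 thus had the sham share. Transmembrane chains made up 7.81% to 9.43% in sham and 2.91% to 5.56% in TBI, while their sum itself was 6.15, 5.74 and 6.33 FPKM in sham and 4.45, 6.1 and 5.15 FPKM in TBI, with overlap and a ratio of the means of 0.862.

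**Figure D4:**
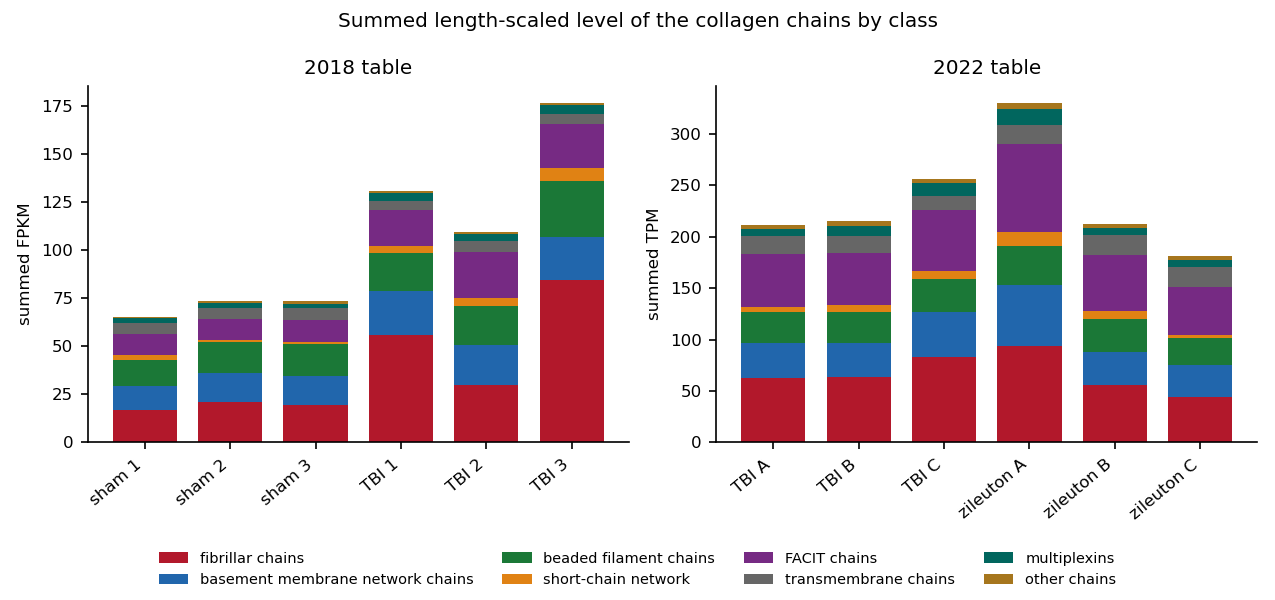
Summed length-scaled level of the collagen chains in each library, stacked by class, as FPKM for the 2018 table (left) and TPM for the 2022 table (right), which are not on 1 scale. The fibrillar part fills most of the added height in TBI 1 and TBI 3 of 2018, and zileuton A is the tallest bar of the 2022 table.

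The order of the chains by FPKM changed with it. In sham the highest was Col6a1 at 11.9 ± 1.27 FPKM (SD, n = 3), above Col4a2 at 7.26 ± 1.16 and Col4a1 at 5.97 ± 0.641, the last pair overlapping in range. In TBI Col6a1 at 17.3 ± 4.25, Col1a1 at 16.4 ± 10.2, Col3a1 at 14.5 ± 9.14 and Col1a2 at 10.5 ± 6.89 FPKM led, and these neighbours did not differ beyond their spread. Ratios of chains that share a trimer were set side by side without a test. Col1a1 to Col1a2 was 1.4 ± 0.144 in sham and 1.57 ± 0.22 in TBI on FPKM, and Col6a1 to Col6a2 was 4.75 ± 0.404 and 4.07 ± 0.835, both with overlap. Col4a1 to Col4a2 was 0.88, 0.781 and 0.822 in sham and 1.05, 0.991 and 1.07 in TBI, the only one of the 3 ratios whose groups were apart.

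The choroid plexus markers moved with some of these chains. Sham 1, the sham library with plexus markers near the TBI level, was the highest sham library for 13 of the 44 members, against 34.0% of all genes tested. It was the lowest for 18, against 33.5%. The 13 included Col4a3, Col4a4, Col4a6, Col8a1, Col8a2, Col9a1 and Col9a3. With the 4 libraries that held more than 100 CPM of plexus markers, sham 1 against the 3 TBI libraries, 8 of 44 members were called, all higher, where 7.22% of 21348 genes were called. That fit takes the lone sham library to vary like the TBI libraries. The 8 were Col4a1, Col4a5, Col7a1, Col9a3, Col11a1, Col16a1, Col20a1 and Col27a1. Col8a2 then had a log2 fold change of 1.15 (adjusted p = 0.0571) in place of 1.87, Col4a4 of 1.20 (adjusted p = 0.155) in place of 1.98 and Col9a1 of 0.84 (adjusted p = 0.311) in place of 1.67. Col1a1 remained near its value at 2.07 (adjusted p = 0.189), and the median over the members was 0.84. How much plexus tissue contributed to the full comparison was not tested.

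**Figure D5:**
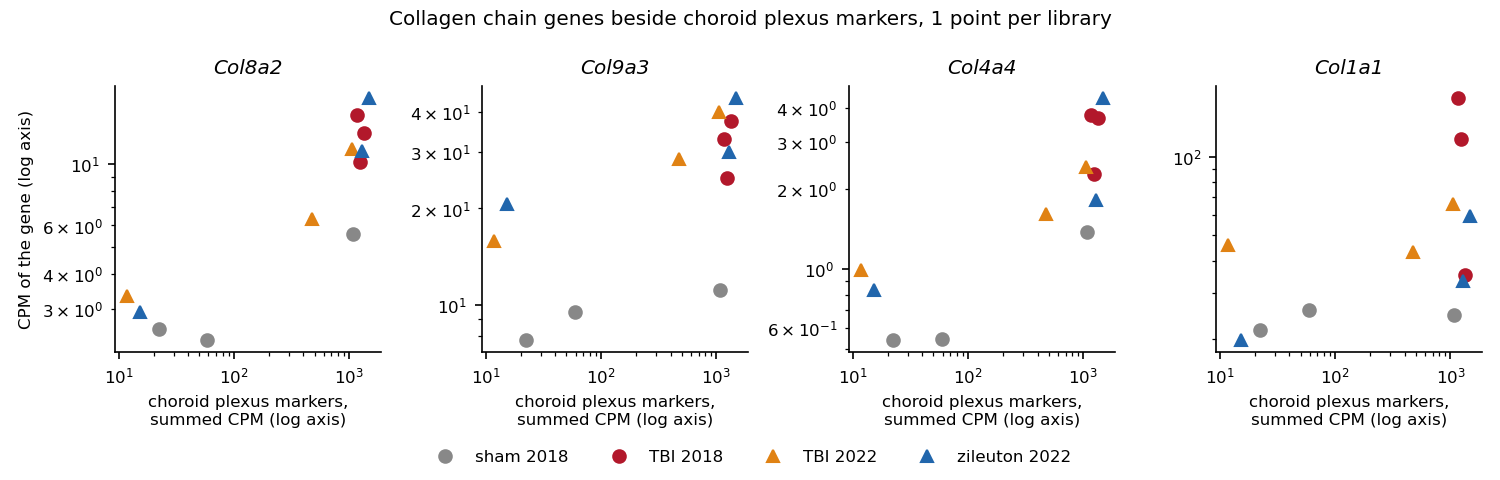
CPM of Col8a2, Col9a3, Col4a4 and Col1a1 against the summed CPM of 6 choroid plexus markers, both on log axes, 1 point per library, circles for 2018 and triangles for 2022. Within the 2022 table the libraries with low plexus markers (TBI A at 11.7 CPM and zileuton C at 15.2 CPM) are the lowest in Col8a2, Col9a3 and Col4a4. For Col1a1 zileuton C is also the lowest, at 19.8 CPM, whereas TBI A lies among the others.

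Other tissues that make collagens were looked for by markers that hold no collagen, in a fit that called 16.8% of all genes higher and 11.2% lower. Endothelial markers were called higher for 6 of 8, with sums of 65.3 to 88.7 CPM in sham and 96.5 to 151 CPM in TBI. Pericyte and smooth muscle markers were called for 5 of 10 (144 to 168 CPM and 222 to 237 CPM), and fibroblast and meningeal markers for 5 of 13. The 5 were Dcn, Lum, Mfap5, Fbln1 and Slc13a3, and Dcn, Lum and the uncalled Fmod are also among the fibril partners below. All 7 markers of microglia and macrophages were called higher, at 237 to 280 CPM and 1099 to 1600 CPM. Astrocyte markers were called higher for 4 of 6 (4069 to 4564 CPM and 7453 to 7703 CPM) and oligodendrocyte markers for 4 of 6.

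Cartilage and bone markers were low, at 5.75 to 6.24 CPM in sham and 11.7 to 16 CPM in TBI, and 4 of the 6 tested were called higher. Chad, 1 of the 4, had 2, 18 and 5 counts in sham and 25, 39 and 43 in TBI. Comp, another of the 4, had 14, 16 and 6 counts in sham and 27, 44 and 74 in TBI. Both entered the test through the TBI libraries, where they were high, so their calls are no support for a change. Ibsp had 8, 7 and 4 counts in sham and 18, 8 and 155 in TBI 1, 2 and 3. Bglap had 2, 2 and 1 counts in sham and 26, 0 and 58 in TBI 1, 2 and 3. Neither of these bone genes passed the filter on low counts, so they were not tested. Skeletal muscle markers were at 22 to 24.7 CPM and 19.7 to 24.9 CPM, with 1 of 6 called lower. Embryonic and fetal genes were at 22.9 to 27.1 CPM and 29.9 to 65.1 CPM, with H19 called higher and the embryonic globins Hba-x and Hbb-y called lower. Hba-x had no count in any TBI library. Both globins entered the test through the sham libraries, where they were high, so their calls are no support for a change. The part of these tissues in the collagen values was not tested.

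Genes that fold, join, bind or cut collagen were read in the same fit. That fit called 16.8% of all genes tested higher and 11.2% lower, with a median log2 fold change of 0.02. Of 20 genes of collagen folding and modification 12 were called higher and 0 lower, with a median log2 fold change of 0.61. P4ha3, a subunit of the prolyl hydroxylase, went from 3.05 ± 0.768 to 14.8 ± 2.65 CPM (SD, n = 3, log2 fold change 2.28, adjusted p = 0.00012). Crtap rose by 1.49 on the log2 scale (adjusted p = 0.00126) and the lysyl hydroxylase Plod1 by 1.38 (adjusted p = 3.04e-05). P4hb, the other subunit of that enzyme, rose by 0.72 (adjusted p = 0.000399).

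Of 13 genes of trimming and cross-linking 6 were called higher. Lox, the lysyl oxidase that cross-links fibrils, was at 1.27, 1.12 and 1.35 CPM in sham and at 11.3, 3.47 and 20.5 CPM in TBI (log2 fold change 3.23, SE 0.555, adjusted p = 0.003). TBI 2 was the lowest TBI library here too. Pcolce and Loxl3 rose (log2 fold changes 1.49 and 1.41, adjusted p = 0.000399 and 0.00119), while Bmp1, which trims the ends of procollagen, was not called (log2 fold change 0.43, adjusted p = 0.103).

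Of 10 collagen receptors tested 9 were called higher. Itga2, the integrin subunit alpha 2, had 4 to 11 counts in sham and 42 to 82 in TBI (log2 fold change 2.92, adjusted p = 0.00216). It is 1 of the 9 but entered the test through the TBI libraries, where it was high, so its p-value is no support for a change. Lair1, an inhibitory receptor of leukocytes, and Ddr1, a receptor tyrosine kinase, rose (log2 fold changes 1.83 and 1.29, adjusted p = 1.92e-05 and 0.000828). Itgb1, the beta subunit shared by the collagen integrins, rose by 0.82 (adjusted p = 0.000113). Gp6 was not tested, with 0 CPM in each TBI library.

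Of 8 genes of collagen breakdown tested 6 were called higher. Mmp13, an interstitial collagenase, had 0, 10 and 0 counts in sham and 220, 12 and 2634 in TBI, so TBI 2 was near sham 2. Mmp8, the collagenase of neutrophils, had 0, 2 and 0 counts in sham and 54, 40 and 170 in TBI. Mmp13 and Mmp8 are among the 6 but entered the test through the TBI libraries, where they were high. Their calls are thus no support for a change. Mmp9 rose (log2 fold change 2.07, adjusted p = 0.00607), as did Pepd, which releases proline from collagen fragments (log2 fold change 0.42, adjusted p = 0.00759). Mmp1a was not tested, with counts in 1 library alone.

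Of 12 fibril partners 10 were called higher, with a median log2 fold change of 1.45. The thrombospondin Thbs1 (log2 fold change 3.85, adjusted p = 0.000797), the adhesion protein Tgfbi (3.08, adjusted p = 8.12e-05) and the fibril proteoglycan Lum (1.99, adjusted p = 0.029) changed most. Sparc, a collagen-binding protein of the matrix, went from 242 ± 22.9 to 629 ± 57.8 CPM (log2 fold change 1.38, adjusted p = 3.19e-05). Of 11 laminins, nidogens and proteoglycans of the basement membrane 7 were called higher, led by Nid1 (1.27, adjusted p = 0.000548), Nid2 (1.15, adjusted p = 0.00174) and Lamb2 (0.89, adjusted p = 0.00041). Agrn, a proteoglycan of the membrane, was at 148 ± 13 CPM in sham and 147 ± 7.98 CPM in TBI and was not called.

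The 2022 libraries asked what zileuton changes in the injured brain. No collagen chain was called, in a comparison in which edgeR called 0 of 17363 genes, a share of 0, and the smallest adjusted p of any gene was 0.185. At an unadjusted p under 0.05 there was 1 member, Col10a1, where 6.83% of all genes passed, and DESeq2 called the same gene alone among the members and 27 genes in all. Since Col10a1 reached 10 counts in the 3 TBI libraries and in 0 zileuton libraries, it entered the test through the group where it was high, and its p-values are no support for a change. The median log2 fold change was 0.11 over the members and 0.00 over all genes, with 28 positive and 16 negative. The groups did not overlap for 2 members, Col10a1 lower and Col17a1 higher, where 13.6% of all genes did not. These p-values do not show that the groups were alike.

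Col10a1 (chr10:34389981-34397085) had 19, 94 and 11 counts in TBI A, B and C and 4, 4 and 3 counts in zileuton A, B and C. The groups were apart, and the TBI mean rested on TBI B. The fitted log2 fold change was −3.34 (SE 0.819, edgeR adjusted p = 0.713), with the same limit, and it lay between −3.76 and −2.07 when each library was left out in turn. Its exons overlap Nt5dc1 on the opposite strand, so reads of either gene may be counted here. Col17a1 had 9, 17 and 12 counts in TBI and 17, 18 and 16 counts in zileuton (log2 fold change 0.45, SE 0.344, adjusted p = 0.773), and in counts the groups touch at 17.

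Among the fibrillar chains, Col1a1 was at 46, 43 and 65.8 CPM in TBI A, B and C and at 59.5, 33.4 and 19.8 CPM in zileuton A, B and C. The groups overlapped through zileuton A, and zileuton B and C lay below all TBI libraries (log2 fold change −0.46, SE 0.351, adjusted p = 0.775). Col1a2 was at 53, 52.6 and 79.9 CPM and at 86.2, 47 and 34.4 CPM (log2 fold change −0.15, SE 0.316, adjusted p = 0.923). Col3a1 was at 31.1, 27.1 and 49.1 CPM and at 48.5, 20.7 and 13.4 CPM (log2 fold change −0.37, SE 0.433, adjusted p = 0.846). In all 3 genes zileuton A was high and zileuton B and C were low.

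Zileuton A was also the highest of its group for Col4a1, Col8a2, Col9a3 and Col6a1. Col4a1 was at 49.2, 53.2 and 72.3 CPM in TBI and at 89.8, 39.4 and 39.6 CPM in zileuton (log2 fold change −0.05, SE 0.316, adjusted p = 0.973). Col8a2 was at 3.33, 6.32 and 11.3 CPM in TBI and at 17.3, 11.1 and 2.93 CPM in zileuton (log2 fold change 0.58, SE 0.602, adjusted p = 0.828). Col9a3 was at 15.8, 28.6 and 40.2 CPM and at 44.3, 30.1 and 20.7 CPM (log2 fold change 0.17, SE 0.354, adjusted p = 0.92). The last pair followed the order of the choroid plexus markers, TBI A and zileuton C being low in both, and the part of plexus tissue was not tested. Col6a1 was steadier, at 35, 34.4 and 35.9 CPM in TBI and 40.7, 37.8 and 30.5 CPM in zileuton (log2 fold change 0.05, SE 0.112, adjusted p = 0.927). So was Col25a1, at 36.5, 36.1 and 27.7 CPM and 33.5, 40.5 and 41.7 CPM (log2 fold change 0.21, SE 0.132, adjusted p = 0.742).

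Zileuton A was the highest of its group for 36 of the 44 members, against 36.7% of all genes tested, and TBI C was the highest of its group for 32, also against 36.7%. Zileuton A was the highest of all 6 libraries for 29 members, against 16.4% of genes. The summed collagen level was 537, 568 and 725 CPM in TBI and 846, 525 and 451 CPM in zileuton, a ratio of the means of 0.996. Without zileuton A the ratio was 0.801, the median log2 fold change was −0.16, and 9 members had an unadjusted p under 0.05, all lower in zileuton, where 10.8% of all genes passed. The 9 were Col1a1, Col1a2, Col3a1, Col5a1, Col4a1, Col4a2, Col7a1, Col10a1 and Col18a1, with adjusted p no lower than 0.329. Among them Col10a1 entered the test through the TBI libraries, where it was high, so its p-value is no support for a change. No gene was called in that fit.

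The ratio of the type I chains did separate the groups. Col1a1 to Col1a2 was 0.773, 0.729 and 0.725 in TBI and 0.611, 0.601 and 0.513 in zileuton on TPM. On counts it was 0.817 to 0.869 and 0.575 to 0.711, also without overlap, and the ratio had no test. In the 2018 table the same ratio overlapped between sham and TBI. Col4a1 to Col4a2 was apart on TPM (1.1 to 1.36 in TBI and 1.48 to 1.6 in zileuton) but overlapped on counts (1.09 to 1.24 and 1.03 to 1.31), and Col6a1 to Col6a2 overlapped on both.

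The partners and tissue markers gave no call either. None of the 73 partner genes tested had an unadjusted p under 0.05, with list medians from −0.15 to 0.09. Lox had 142, 89 and 164 counts in TBI and 142, 86 and 48 counts in zileuton, again with zileuton A high. Fibroblast and meningeal markers were at 127 to 156 CPM in TBI and 106 to 150 CPM in zileuton. At an unadjusted p under 0.05, 2 of 12 tested were lower, while 2 of 8 endothelial markers were higher. In the same way 1 of 6 astrocyte markers and 1 of 5 embryonic and fetal genes were higher. Lower were 1 of 6 neuron markers and 1 of 7 markers of microglia and macrophages. Of all genes tested, 6.83% passed that threshold. Embryonic and fetal genes stood at 92 to 185 CPM and 81.9 to 159 CPM, and Hba-x and Hbb-bh1 had no count in any of the 6 libraries. Length of the gene moved with the log2 fold changes over all genes, with a rank correlation of 0.305 across 17166 genes, against −0.117 across 19479 genes in the 2018 table, and genes are not independent replicates. With this trend removed no member was called for zileuton and the median of the members was 0.06.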

How the data were processed

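The authors deposited 2 tables for each year, made from read pairs of poly(A) RNA. For 2018 the authors deposited whole-number read counts per gene, and FPKM, counts scaled by gene length and library size. For 2022 the authors deposited estimated counts per gene, of which 13.7% were not whole, and TPM, scaled by gene length and library size. The submitters' processing notes name HISAT2, featureCounts, Subread, DESeq2 and GRCm39, while versions, their roles and whether counting kept the strand are not given in the sources used here. No column was left unmapped.

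Estimated counts were rounded, and each comparison was fitted on its whole table with edgeR 4.0.16 (R 4.3.3): filterByExpr, TMM factors, glmQLFit and glmQLFTest, with Benjamini-Hochberg adjustment over all genes tested and a threshold of 0.05. Fold changes are log2, later group over reference. The script was tested on simulated data. Alternatives were DESeq2 1.42.0, limma 3.58.1 on log2(FPKM or TPM + 1 or + 0.1), an equal-variance two-sample test (2-sided) on the length-scaled values, other scalings and filters, a robust fit, a replicate block, leaving out each library and, chosen after seeing the data, a gene length trend and the libraries with over 100 CPM of choroid plexus markers. The study gives 3 mice per group, while the labels do not tie a library to a mouse, so p-values measure the spread between these libraries, and 3 against 3 limits their precision.

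The members and lists were chosen with earlier results of these data known. Per-library values are given for members called at 2-fold or more or called lower, for the member with the highest mean CPM in each class, and for members with an unadjusted p under 0.05 for zileuton. Of each partner list the text names up to 3 called genes with the largest change and the gene with the highest mean CPM. Other members are named with their values. Positions are from GENCODE M21 on GRCm38, the build of the annotation at hand and not the one in the notes, and promoter sequences are from RefSeq on GRCm38.p6. Figures were drawn with matplotlib 3.10.9.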

Additional observations from a re-analysis of the deposited data

How the results depend on the processing

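For TBI against sham the number of members called was 26 and ranged from 21 to 27 when each library was left out in turn (19 to 24 higher, 2 to 3 lower). It was 15 with limma on log2(FPKM + 1) without a filter (14 higher, 1 lower), 9 with the two-sample test on FPKM (9 higher, 0 lower) and 8 with only the libraries over 100 CPM of plexus markers (8 higher, 0 lower), a fit that has fewer samples and also matches plexus content. Limma with either pseudocount and a filter called 1 lower. The cause of these differences was not tested. Col26a1 lay between −0.26 and 0.24 when each library was left out, negative without sham 1 (−0.26) and without TBI 1 (−0.13). For zileuton DESeq2 called 1 member and the other settings 0. The number with an unadjusted p under 0.05 was 1, became 0 with the 3 limma settings and 2 without a filter or with the plexus libraries alone, and ranged from 1 to 9 when each library was left out. Col4a1, at −0.05, turned positive with limma (0.20, 0.21 and 0.20), with the two-sample test (0.26), without TBI C (0.14), zileuton B (0.15) or zileuton C (0.16) and with the plexus libraries (0.04), and was −0.56 without zileuton A. On counts in place of length-scaled values, Col1a1 to Col1a2 was 0.738 in sham, 0.829 in TBI 2018, 0.836 in TBI 2022 and 0.659 in zileuton. Col4a1 to Col4a2 was 0.934 in sham, 1.17 in TBI 2018 and 1.14 in zileuton, and Col6a1 to Col6a2 was 2.5 in sham and 2.14 in TBI 2018. The replicate numbers did not pair the libraries: same-numbered libraries had correlations of −0.0224, −0.131 and −0.0892 in 2018 and −0.348, 0.0495 and −0.345 in 2022. With the replicate block 24 members were called for TBI (22 higher, 2 lower), and 0 for zileuton with 1 at an unadjusted p under 0.05. Of the values of single genes and sums under alternatives, 510 stayed the same, which for single genes means the same direction and side of the threshold. Of the rest, 53 lost the call, 10 gained it, 10 changed sign and 4 others moved.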
